A study of Mus musculus with 5 samples.

Results

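The 7 genes studied here are ones through which the gut epithelium is known to signal to intraepithelial T cells. They were followed across ileal cell classes, from crypt to villus, and between surgery groups. They are Ccl25, Btnl1, Btnl2, Btnl4, Btnl6, Il15 and Cdh1, chosen by symbol, and all 7 of 7 were found among the 27998 genes of the deposited gene table. Ileal epithelium of C57BL/6 mice, 8 to 12 weeks old, had been profiled by droplet single-cell RNA sequencing. There were 3 libraries after sham surgery (Sham 1 to 3) and 2 after small bowel resection (SBR 1 and 2, called resection here), in which part of the small bowel is taken out. Sex, time after surgery and the number of mice behind each library are not given in the labels, so p-values measure the spread between these libraries, which may be technical.

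Intraepithelial lymphocytes are T cells that live between the epithelial cells of the gut, many of them carrying a gamma delta receptor. Enterocytes attract them with the chemokine Ccl25, which binds the receptor Ccr9. They select and maintain gamma delta subsets with butyrophilin-like surface proteins, of which Btnl1 pairs with Btnl6 and is also known to pair with Btnl4, while Btnl2 is known as an inhibitor of T cell activation. Enterocytes also present the survival cytokine Il15 on its receptor chain Il15ra, and anchor the cells through E-cadherin, the product of Cdh1, which binds the integrin that holds the Itgae chain.

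The 4 butyrophilin-like genes lie close together on mouse chromosome 17 in GRCm38, all protein coding in GENCODE M21. Btnl2 runs from 34354822 to 34369495 and Btnl1 from 34377132 to 34386028 on the plus strand. Btnl4 runs from 34466562 to 34477318 and Btnl6 from 34507804 to 34517352 on the minus strand. Ccl25 (4325210 to 4360020, plus), Il15 (82331632 to 82403222, minus) and Cdh1 (106603351 to 106670246, plus) all lie on chromosome 8.

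The promoters of the 4 butyrophilin-like genes are shown because these genes shared a villus pattern and because 2 of them are near copies of each other. Each is the 250 bases before the RefSeq start (GRCm38.p6), written 5′ to 3′ on the gene's strand. In Btnl2 (chr17:34354572-34354821) the capitals mark a match to the letters CAAAGTCCA, a motif of the enterocyte factor Hnf4a. In Btnl1 (chr17:34376882-34377131) they mark a match to the letters CAAAGTC, the core of that motif. In Btnl4 (chr17:34475938-34476187) and Btnl6 (chr17:34517353-34517602) they mark the bases left unmatched when those 2 promoters were aligned. The RefSeq start of Btnl4 lies inside the GENCODE gene.
Btnl2: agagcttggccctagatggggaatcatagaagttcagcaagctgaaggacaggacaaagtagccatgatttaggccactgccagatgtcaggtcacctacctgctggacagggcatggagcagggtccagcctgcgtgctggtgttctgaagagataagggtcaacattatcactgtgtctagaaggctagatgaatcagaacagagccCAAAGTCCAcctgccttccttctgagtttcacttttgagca
Btnl1: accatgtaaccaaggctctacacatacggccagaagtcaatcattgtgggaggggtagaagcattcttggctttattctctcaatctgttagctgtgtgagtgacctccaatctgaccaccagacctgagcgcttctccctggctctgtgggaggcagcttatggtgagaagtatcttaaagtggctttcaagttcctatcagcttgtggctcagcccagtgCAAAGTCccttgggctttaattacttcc
Btnl4: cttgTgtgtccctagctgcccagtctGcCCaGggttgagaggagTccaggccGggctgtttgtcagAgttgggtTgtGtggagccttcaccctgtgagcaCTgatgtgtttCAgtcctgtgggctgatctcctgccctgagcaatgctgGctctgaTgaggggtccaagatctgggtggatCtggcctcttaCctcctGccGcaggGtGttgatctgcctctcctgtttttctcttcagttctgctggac
Btnl6: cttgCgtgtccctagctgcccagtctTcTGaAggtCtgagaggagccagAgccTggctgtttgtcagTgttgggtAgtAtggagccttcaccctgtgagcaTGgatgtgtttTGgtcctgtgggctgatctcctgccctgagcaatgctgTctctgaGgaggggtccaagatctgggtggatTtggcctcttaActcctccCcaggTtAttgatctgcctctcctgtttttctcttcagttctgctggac

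The 9 letters CAAAGTCCA occurred in the Btnl2 promoter, first base 41 before the start, and the 7 letters CAAAGTC in Btnl1, 28 before it. Searched on both strands in 32851 RefSeq promoters that also held the 50 bases after the start, the longer motif was found in 0.384% and the shorter, which it contains, in 3.84%. Neither was found in the promoters of Btnl4 and Btnl6, and the letters TTTATG, a Cdx motif present in 10.8% of promoters, in none of the 4. Ccl25 promoters, not printed here, were searched too and held neither Hnf4a motif. The Ccl25 promoter that begins at 4349338 held the Cdx letters, 192 bases before the start on the opposite strand. When aligned, the Btnl4 and Btnl6 promoters were identical at 91.2% of the 250 bases, against 53.2% to 56.8% for the other pairs of the 4 genes.

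The likeness of Btnl4 and Btnl6 bears on their counts. The assay reads the 3′ end of transcripts, and the last 500 transcript bases of Btnl4 and Btnl6 were 66.6% identical. Of the 50-base windows in that stretch, 7.98% in Btnl4 and 11.3% in Btnl6 also occurred in another butyrophilin-like gene, and 0 of 451 in Btnl1 and in Btnl2. The values of Btnl4 and Btnl6 are therefore uncertain, both for this and for their low counts.

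The deposited matrices held 19404 cell barcodes, 1402 to 7233 per library, with medians of 4541 to 6240 UMIs (unique molecules) per cell. After filters and doublet removal 18235 cells remained in 19 clusters, named only from marker genes: 8124 enterocyte-like, 6308 immature enterocyte-like, 1071 cycling-like, 1051 Paneth-like, 633 stem-like, 571 goblet-like, 27 tuft-like and 450 T cell-like. DNA replication genes (among them Hells, Ung, Mcm6, Uhrf1, Dut and Lig1) led the stem-like cluster, with 2 of its 10 stem markers, Slc12a2 and Cdca7, among its 10 leading genes. Its summed stem markers reached 565.5 to 813 CPM, against 279 to 365 in cycling-like cells. Between 6 and 47 barcodes were shared by each pair of libraries, 197 barcodes in all. Most enterocyte-like and immature enterocyte-like clusters came largely from 1 library or from 1 of 2 library sets (Sham 1 with SBR 1, and Sham 2 and 3 with SBR 2, sets seen in the data and not named in the labels), so different clusters make up these classes in different libraries. Among enterocyte-like clusters, 11 was mostly Sham 1, 9 Sham 2, 7 Sham 3, 4 and 10 SBR 1, and 1 and 6 SBR 2. Clusters 2, 3, 7 and 11, with 4783 cells, scored within 0.05 for both enterocyte classes. Levels are UMIs summed over the cells of a class and scaled to a common library total (CPM). Means ± SD are over the 5 libraries of both surgery groups. Tuft-like cells, 2 to 10 in a library, were too few and were left out of the class rankings. Their means were 539 ± 252 CPM for Ccl25, on 102 UMIs, and 429 ± 297 for Cdh1, on 65 UMIs. The Cdh1 mean lay above that of every ranked class.

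T cell-like droplets did not give a clean background of free RNA. Their summed enterocyte markers reached 50.6% to 69.8% of the enterocyte-like level of the same library, and their Ccl25 66.5% to 89.3%. In goblet-like cells the same marker sum was 40.7% to 61.0% and Ccl25 42.2% to 79.7%, and the part of enterocyte RNA in the levels of goblet-like cells was not tested. In Paneth-like cells the sum was 5.60% to 16.8% and Ccl25 5.73% to 20.5%. Low levels of a gene in any non-absorptive class therefore cannot be told apart from RNA of absorptive cells.

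Ccl25, the chemokine for Ccr9, had UMIs in every epithelial class and was highest in the absorptive lineage. In Paneth-like cells its median percent of the enterocyte-like level (8.01%) was near that of the summed enterocyte markers (8.165%). Expression by Paneth-like cells themselves was therefore not established. Ccl25 stood at 918 ± 283 CPM in immature enterocyte-like cells, 788 ± 234 in enterocyte-like, 497 ± 125 in goblet-like, 380 ± 86.7 in cycling-like, 306 ± 119 in stem-like and 87.1 ± 53.8 in Paneth-like cells. After thinning each cell to 3000 UMIs, 85.7% ± 6.91 of enterocyte-like cells held a Ccl25 UMI, 21.2% ± 12.4 of Paneth-like and 75.7% ± 10.1 of T cell-like ones. Every neighbouring pair in this order overlapped in its library values, and the tests within libraries are given further on.

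Cdh1, the adhesion gene, differed more between libraries than between most classes. In enterocyte-like cells it stood at 562, 202 and 215 CPM in Sham 1 to 3 and at 286 and 153 in SBR 1 and 2. Sham 1 and SBR 1 were the 2 highest libraries here and in immature enterocyte-like, stem-like and cycling-like cells. The class means were 373 ± 210 CPM in immature enterocyte-like, 336.5 ± 164 in cycling-like, 326 ± 126 in goblet-like, 316 ± 137 in stem-like, 284 ± 163 in enterocyte-like and 55.8 ± 14.7 in Paneth-like cells. All neighbours in this order but the last overlapped.

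Btnl1 and Btnl2 were highest in enterocyte-like cells. Btnl1 stood there at 36.3, 30.9 and 16.0 CPM in Sham 1 to 3 and 28.3 and 22.8 in SBR 1 and 2. Its class means were, from high to low, enterocyte-like 26.9 ± 7.79, goblet-like 14.4 ± 7.30, immature enterocyte-like 13.4 ± 3.24, stem-like 3.93 ± 3.69, cycling-like 3.08 ± 2.09 and Paneth-like 2.15 ± 1.98. Goblet-like cells overlapped with both enterocyte classes, and the last 3 classes overlapped.

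Btnl2 stood at 38.6, 42.4 and 20.1 CPM in enterocyte-like cells of Sham 1 to 3 and at 55.8 and 39.3 in those of SBR 1 and 2. Its class means were 39.3 ± 12.8 in enterocyte-like, 28.6 ± 15.7 in goblet-like, 13.0 ± 2.36 in immature enterocyte-like, 6.82 ± 1.64 in stem-like, 5.25 ± 2.71 in cycling-like and 3.02 ± 1.70 in Paneth-like cells. Goblet-like cells overlapped with both enterocyte classes, and cycling-like cells with both stem-like and Paneth-like cells, which did not overlap with each other. At 3000 UMIs, 11.1% ± 3.22 of enterocyte-like cells held a Btnl2 UMI and 7.80% ± 1.78 a Btnl1 UMI, against 0.672% ± 0.560 and 0.691% ± 0.456 of Paneth-like cells. T cell-like droplets reached 4.56% ± 2.96 and 6.78% ± 5.13, so the Btnl1 share does not set enterocyte-like cells apart from droplets that hold their RNA.

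Btnl4 and Btnl6 were near the limit of detection. In enterocyte-like cells Btnl4 stood at 8.76, 2.47 and 2.80 CPM in Sham 1 to 3 and 7.28 and 3.11 in SBR 1 and 2, and Btnl6 at 10.1, 3.81 and 3.50 and at 8.62 and 4.596. Sham 1 and SBR 1 were again the 2 highest libraries for both. Enterocyte-like and goblet-like cells did not separate for either gene, with means of 4.88 ± 2.92 and 4.46 ± 2.37 CPM for Btnl4 and 6.12 ± 3.01 and 6.75 ± 3.76 for Btnl6. A Btnl4 UMI was found in 1.38% ± 0.641 of thinned enterocyte-like cells and a Btnl6 UMI in 1.70% ± 0.839.

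The partners Btnl1 and Btnl6 could hardly be followed in single cells. Both had a UMI in 16 of 7324 thinned enterocyte-like cells, where independent detection in each library would give 10.3, and Btnl1 and Btnl4 in 7, where it would give 8.15. These counts are too few to describe which cells hold both.

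Il15 was also highest in enterocyte-like cells. It stood there at 13.7, 23.8 and 12.3 CPM in Sham 1 to 3 and at 28.6 and 26.0 in SBR 1 and 2. Its class means were 20.9 ± 7.43 in enterocyte-like, 10.6 ± 5.42 in goblet-like, 8.75 ± 1.67 in immature enterocyte-like, 5.53 ± 3.09 in cycling-like, 4.004 ± 3.09 in stem-like and 2.22 ± 1.15 in Paneth-like cells. Every neighbouring pair overlapped. In stem-like cells of Sham 1, 0 of 120244 UMIs were Il15, which allows up to 24.9 CPM.

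**Figure D1:**
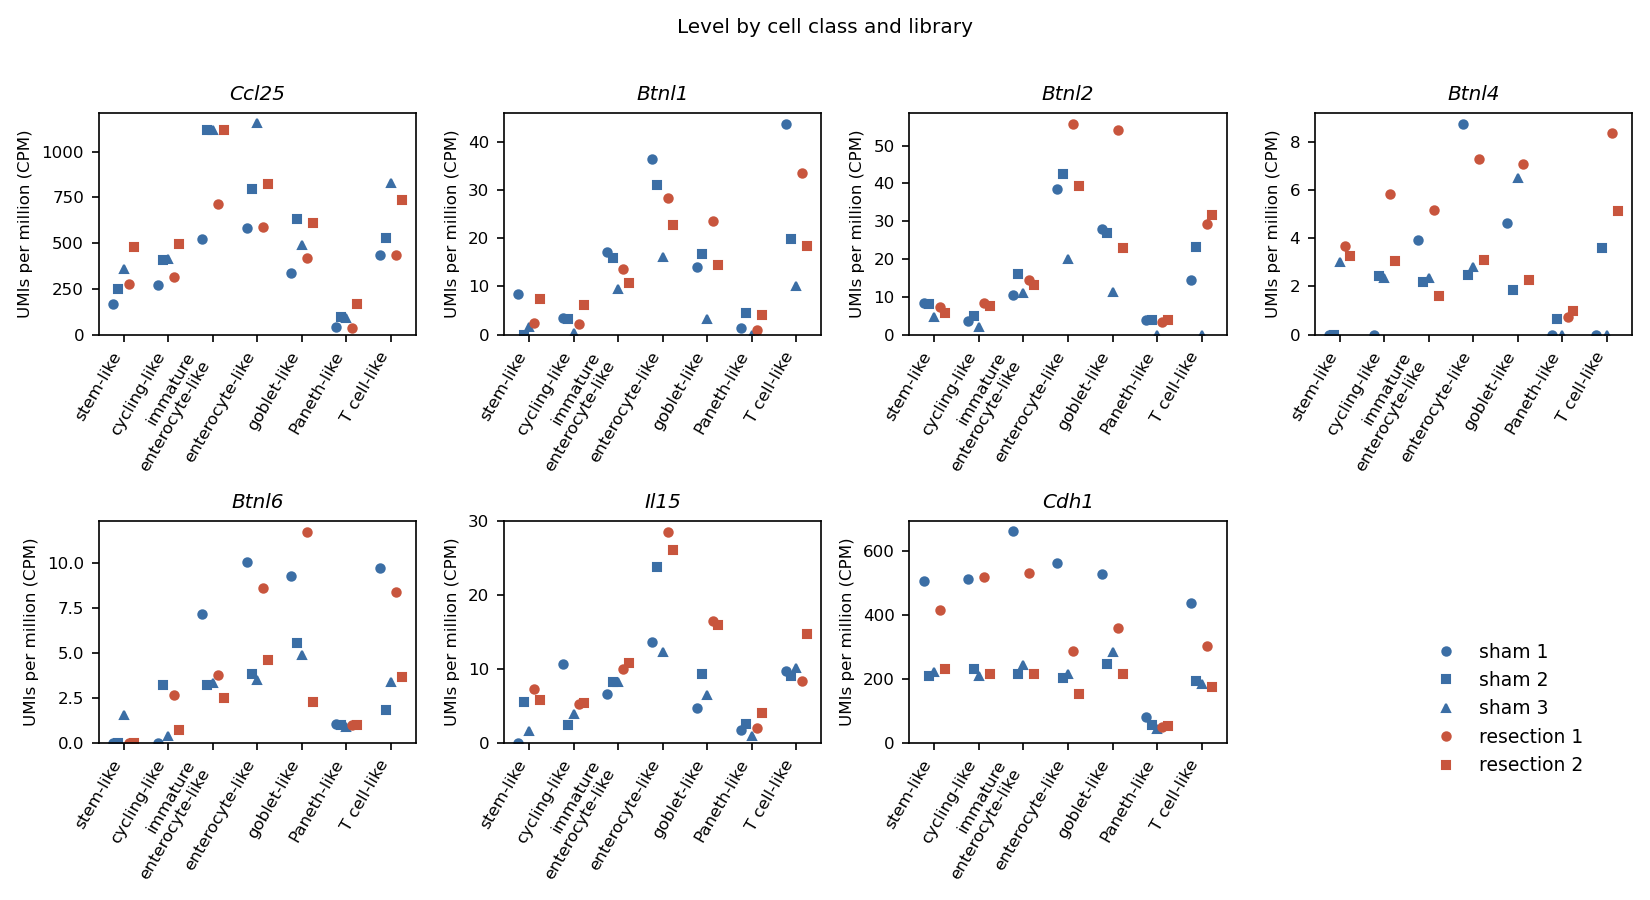
Level of each of the 7 genes (CPM, each panel on its own linear axis from 0) in 7 cell classes, with 1 point per library, blue for sham and red for resection. Btnl1, Btnl2 and Il15 have their highest means in enterocyte-like cells, while Cdh1 is set apart mainly by Sham 1 and SBR 1, the 2 libraries drawn as circles.

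On leaving the crypt, 6 of the 7 genes rose. Immature enterocyte-like cells were compared with crypt progenitors (stem-like and cycling-like cells together) in edgeR with the library as a block and Benjamini-Hochberg adjustment over 9783 genes, of which 34.0% were called higher and 66.5% in either direction. The log2 fold changes were 2.14 ± 0.31 (SE) for Btnl1, 1.79 ± 0.38 for Btnl6, 1.59 ± 0.10 for Ccl25, 1.47 ± 0.20 for Btnl2, 1.28 ± 0.21 for Il15 and 0.36 ± 0.08 for Cdh1, with edgeR adjusted p from 2.09e-08 to 0.00142. Btnl4 stood at 0.07 ± 0.31 (edgeR adjusted p = 0.864). The Cdh1 call was lost when library totals alone set the scale (0.11, edgeR adjusted p = 0.282) and when the library block was dropped (0.39, edgeR adjusted p = 0.300).

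At the next step the 7 genes parted. From immature enterocyte-like to enterocyte-like cells Btnl2 rose by 1.76 ± 0.16, Il15 by 1.48 ± 0.15, Btnl1 by 1.23 ± 0.10, Btnl6 by 0.88 ± 0.21 and Btnl4 by 0.85 ± 0.20 on the log2 scale (edgeR adjusted p from 1.16e-05 to 0.00477). Ccl25 (0.04 ± 0.12, edgeR adjusted p = 0.793) and Cdh1 (-0.13 ± 0.11, edgeR adjusted p = 0.317) did not pass. Of 9945 genes, 62.8% were called and 30.9% were called higher. Cdh1 was called lower on library totals alone (-0.38, edgeR adjusted p = 0.0184), at the coarser clustering (-0.32, edgeR adjusted p = 0.0249) and without the 4 clusters that scored near both classes (-0.29, edgeR adjusted p = 0.00743). Library totals alone moved the median of all genes here by -0.26, so the sign for Cdh1 and Ccl25 is relative to the other genes.

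Along the villus the separation was graded. Enterocyte-like and immature enterocyte-like cells of each library were ranked by a score from 10 tip and 10 bottom landmark genes, none of the 7 among them, and cut into 5 equal bins, which are ranges of a score and not cell types. Between 6.40% and 10.7% of a library's cells lay within 0.1 score units of the lowest or highest of these cuts. The bottom bin was 46.5%, 2.34% and 15.4% enterocyte-like in Sham 1 to 3 and 19.97% and 5.22% in SBR 1 and 2, the rest being immature enterocyte-like. Median depth was lower at the top than at the bottom, for example 3327 against 5332 UMIs in Sham 2.

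Btnl2 rose in every library, from 16.7, 11.6 and 6.53 CPM in the bottom bin of Sham 1 to 3 and 18.6 and 9.53 in that of SBR 1 and 2, to 57.5, 50.5 and 30.9 and to 67.4 and 44.7 in the top bin. All top values lay above all bottom values, an order whose share over all genes was not counted. The log2 fold change was 2.30 ± 0.13 (edgeR adjusted p = 4.47e-08).

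Il15 went from 9.68, 6.18 and 4.26 CPM at the bottom in Sham 1 to 3 and 9.31 and 8.96 in SBR 1 and 2 to 10.9, 18.9 and 20.3 and to 44.5 and 35.8 at the top. In Sham 1 it peaked in bin 4 and ended near where it began, with 11 UMIs in each end bin, and it was highest at the top of both resection libraries. The log2 fold change over all libraries was 2.15 ± 0.22 (edgeR adjusted p = 4.64e-06).

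Btnl1 rose from 25.5, 11.02 and 7.95 CPM in Sham 1 to 3 and 15.8 and 8.82 in SBR 1 and 2 to 37.7, 26.4 and 23.9 and to 27.8 and 22.6. It was higher at the top than the bottom in each library, but peaked in bin 4 in Sham 2 and in both resection libraries. The log2 fold change was 1.37 ± 0.17 (edgeR adjusted p = 1.62e-05), with 1.33 ± 0.26 for Btnl6 (edgeR adjusted p = 0.000667) and 0.80 ± 0.27 for Btnl4 (edgeR adjusted p = 0.0223). The Btnl4 call rested on 7 to 23 UMIs per end bin and library and was lost in DESeq2 (adjusted p = 0.0856), on library totals alone (edgeR adjusted p = 0.101), without Sham 2 (edgeR adjusted p = 0.0519) and without SBR 2 (edgeR adjusted p = 0.125).

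Ccl25 and Cdh1 did not share this rise. Ccl25 stood at 595, 1158 and 1060 CPM at the bottom and 499.6, 652 and 1079 at the top in Sham 1 to 3, and went from 730 to 410 in SBR 1 and from 1103 to 622.5 in SBR 2. It was lower at the top in 4 of 5 libraries, Sham 3 being the exception. Its log2 fold change of -0.31 ± 0.15 was not called (edgeR adjusted p = 0.0961), but it was called lower on library totals alone (-0.55, edgeR adjusted p = 0.00883), without Sham 3 (-0.47, edgeR adjusted p = 0.0193) and among enterocyte-like cells alone (-0.69, edgeR adjusted p = 0.00153). Cdh1 stood at -0.17 ± 0.13 (edgeR adjusted p = 0.281), and at -0.41 on library totals alone (edgeR adjusted p = 0.0235), a scaling that moved the median of all genes by -0.25.

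In all, 5 of the 7 genes were called higher toward the tip, where 62.3% of 8812 genes were called and 30.9% called higher. Among enterocyte-like cells alone, 5 of the 7 could be tested. Btnl2 (0.94), Il15 (1.21) and Btnl1 (0.57) were called higher there too, at lower log2 fold changes than over both classes.

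**Figure D2:**
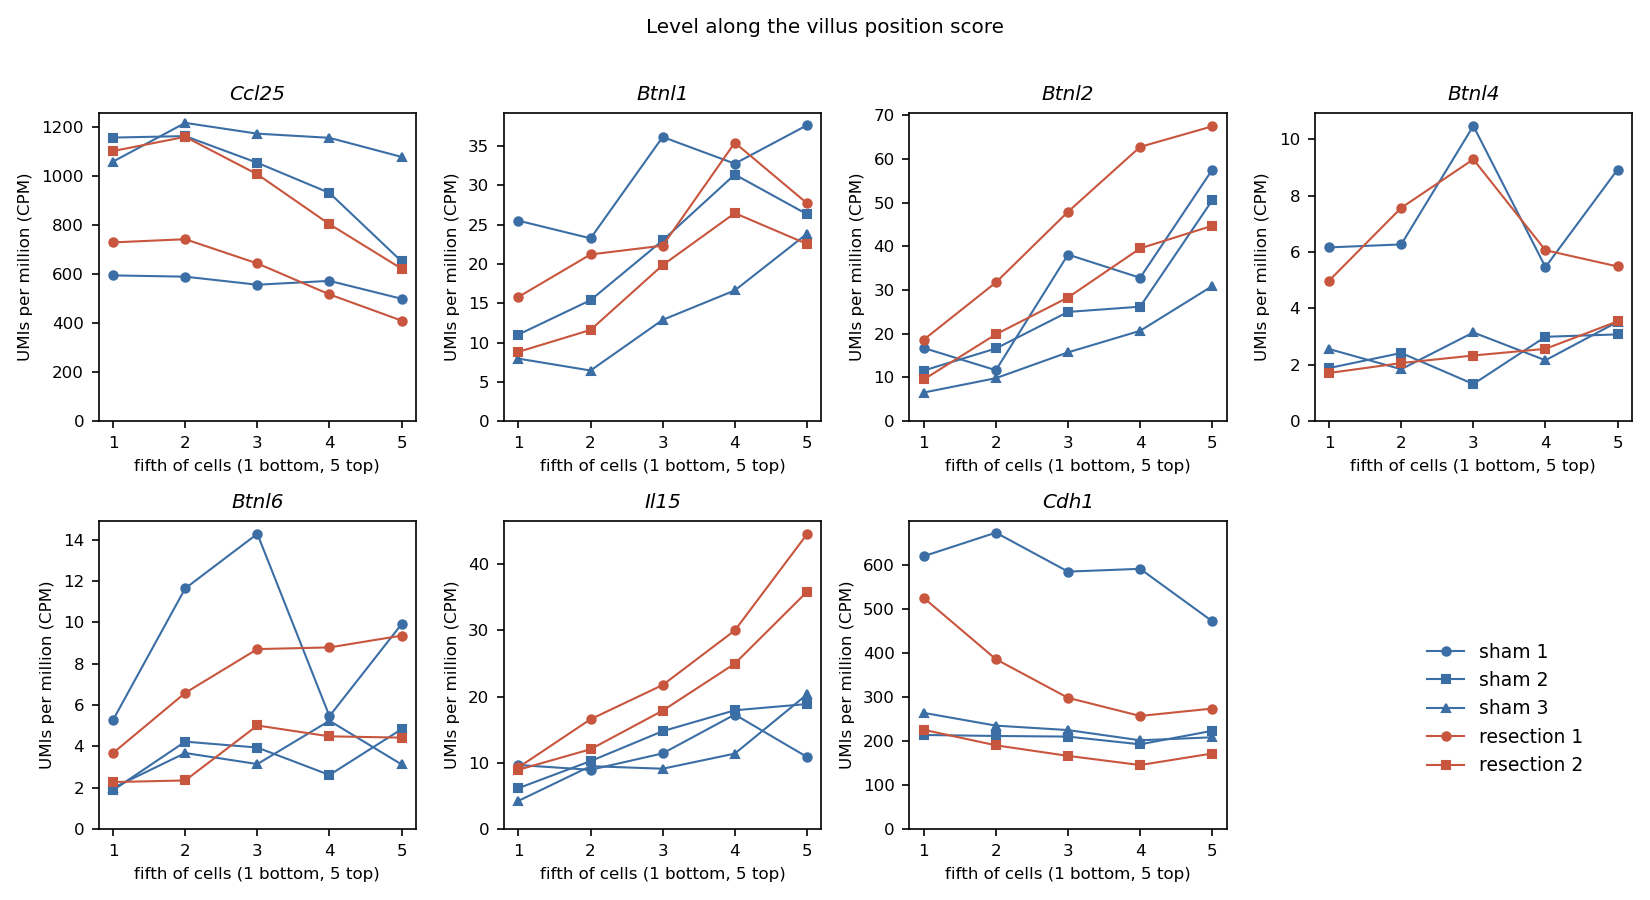
Level of each of the 7 genes (CPM, each panel on its own linear axis from 0) in 5 equal bins of cells from the bottom to the top of the villus position score, with 1 line per library, blue for sham and red for resection. Btnl2 ends higher than it begins in all 5 libraries, Il15 ends highest in the 2 resection libraries, and Ccl25 is lower in the top bin than in the bottom bin in all but Sham 3.

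Other signals of the epithelium to T cells, from lists of related genes, were read in the same fit. All 7 tested genes of the MHC-like ligands, nonclassical class I molecules, were higher at the top, led by H2-Q1 (3.03 ± 0.22), H2-Q2 (2.65 ± 0.14) and H2-Q7 (2.13 ± 0.34), with H2-T3, whose product binds CD8 alpha homodimers, at 0.69 ± 0.14. The H2-Q genes are close relatives whose reads may be shared. The median over the list was 1.92, against 0.00 over all genes tested.

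Of 5 tested chemokines, Cxcl16 (2.64 ± 0.18), Cxcl10 (2.11 ± 0.27), Ccl20 (1.82 ± 0.53) and Cx3cl1 were higher at the top and Ccl28, which attracts plasma cells, was lower (-1.92 ± 0.28). Ccl20 rose from 276 to 2911 CPM in Sham 3 but fell from 8.66 to 1.94 in SBR 1. Its gradient, and that of Il33, differed between surgery groups, as given further on. Of 5 tested cytokine genes, Il33 was higher (1.37 ± 0.31), Kitl (-1.32 ± 0.18) and Il18 (-0.75 ± 0.16) lower, and 2 did not pass. Il15ra, which presents Il15, was among the latter at -0.16 in edgeR, with 11.1, 4.71 and 9.23 CPM in enterocyte-like cells of Sham 1 to 3 and 8.85 and 6.36 in those of SBR 1 and 2. It was called higher only on leaving the crypt (0.64 ± 0.19, edgeR adjusted p = 0.00922), among the steps and classes tested.

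The partners of E-cadherin were called where Cdh1 was not; the difference was not tested. All 6 tested junction genes were higher at the top, led by Jup (0.80 ± 0.11), Ctnna1 (0.72 ± 0.13) and Ctnnd1 (0.72 ± 0.11), which encode catenins that bind cadherins. On library totals alone 5 of the 6 stayed called, Ocln being lost (0.041). Of 3 tested costimulatory and inhibitory genes, Pvr (0.83 ± 0.14) and Cd47 (0.43 ± 0.11) were higher, the latter not on library totals alone (0.19). Tnfrsf14, the receptor for Btla, was too low to be tested, at 0.224 to 0.626 CPM in enterocyte-like cells, and none of the 5 butyrophilin relatives in the gene table could be tested.

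Of 7 tested enterocyte regulators, 4 were higher at the top, led by Prdm1 (2.07 ± 0.33), Gata4 (0.66 ± 0.15) and Irf1 (0.51 ± 0.17), and Cdx1 was lower (-0.95 ± 0.12). On library totals alone Hnf4a (0.26) and Irf1 (0.27) lost their calls. The T cell side was read in T cell-like droplets. Itgae stood there at 48.6, 51.9 and 40.2 CPM in Sham 1 to 3 and at 146.6 and 60.2 in SBR 1 and 2, and Ccr9 at 58.3, 17.9 and 16.8 and at 29.3 and 22.02. With 32 to 229 such droplets per library no test was made. Of 10 genes for receptors of intraepithelial T cells in the table, 1 could be tested along the villus, Klrk1, called lower at the top (-1.10 ± 0.44). The fall was not general: Klrk1 fell in Sham 2, SBR 1 and SBR 2, but not in Sham 1 and Sham 3. Top bins held 4 to 24 Klrk1 UMIs. On leaving the crypt, the 1 gene of this list that could be tested was called higher. In goblet-like against enterocyte-like cells, the 1 that could be tested was called lower. The villus bins are made of both enterocyte classes and not of T cell-like droplets. Which cells the Klrk1 UMIs came from was not tested, so the fall is not a reading of T cells.

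**Figure D3:**
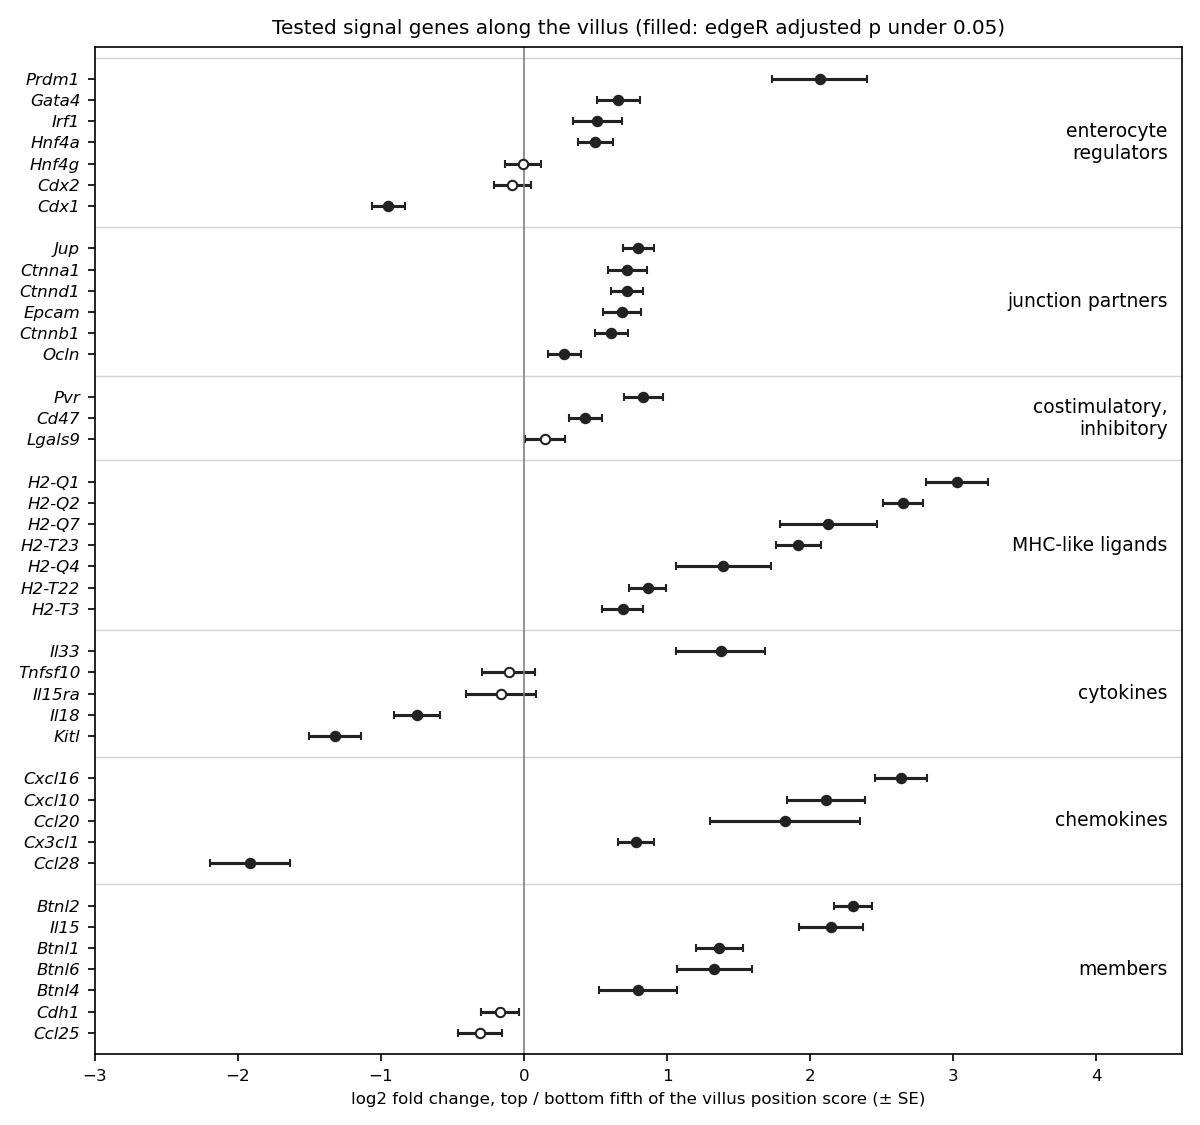
Log2 fold change (± SE, edgeR) between the top and bottom bins of the villus position score for the 7 genes, labelled members, and for the tested genes of 6 related lists, with filled points for an adjusted p under 0.05. Btnl2 and Il15 lie at 2.30 and 2.15, Ccl25 and Cdh1 at -0.31 and -0.17, and all 7 MHC-like ligands and all 6 junction partners are above 0.

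Secretory cells held less of 4 of the genes. Against enterocyte-like cells of the same library, goblet-like cells were lower in Il15 (-1.12 ± 0.21), Btnl1 (-1.03 ± 0.22), Ccl25 (-0.82 ± 0.13) and Btnl2 (-0.73 ± 0.16), with edgeR adjusted p from 4.22e-05 to 0.00129, where 48.2% of 8451 genes were called, 24.4% lower and 23.8% higher. Cdh1 (0.11 ± 0.10), Btnl4 and Btnl6 did not pass, and Cdh1 was called higher without the 4 clusters that scored near both classes (0.34, edgeR adjusted p = 0.0107), with doublets kept (0.24, edgeR adjusted p = 0.0343), at the coarser clustering (0.34, edgeR adjusted p = 0.00716) and on library totals alone (0.30, edgeR adjusted p = 0.0197). Without the library block only Btnl1 was called lower.

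Paneth-like cells were lower in the same 4 genes, Btnl1 (-1.61 ± 0.28), Btnl2 (-1.47 ± 0.22), Ccl25 (-1.25 ± 0.17) and Il15 (-1.14 ± 0.25), with edgeR adjusted p from 6.99e-07 to 0.00041, where 48.6% of 8315 genes were called, 24.6% lower and 24.0% higher. Cdh1 (-0.12 ± 0.14), Btnl4 (-1.27 ± 0.58) and Btnl6 (-0.54 ± 0.39) did not pass, though Btnl4 was called lower without SBR 2 (-1.58, edgeR adjusted p = 0.0463) and without the filter on low counts (-1.48, edgeR adjusted p = 0.017). The scale matters here, since the Paneth markers alone held 37.2% to 43.5% of Paneth-like UMIs. On library totals alone all 7 genes were called lower, Cdh1 at -2.23, and the median of all genes moved to -2.14.

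Sham and resection were compared in each class over 3 and 2 libraries, and in that comparison none of the 7 genes was called in any class where it could be tested. All 7 could be tested in the whole epithelium and in both enterocyte-like classes, 4 in cycling-like, goblet-like and Paneth-like cells and 2 in stem-like cells. Of all genes tested 0% were called in enterocyte-like (9957), immature enterocyte-like (10284), stem-like and cycling-like cells and in all epithelial cells together (11705), 0.0329% in goblet-like and 0.0310% in Paneth-like cells, all of them higher. At an unadjusted p under 0.05 edgeR counted 530 genes in enterocyte-like cells, 319 in all epithelial cells, Il15 among them, and 113 in immature enterocyte-like cells. DESeq2 called 51, 34 and 2 genes there, none of the 7 among them. In simulated counts such a fit found 8% of 2-fold and 84% of 4-fold changes among enterocyte-like sums. Those counts were drawn independently per library at a fixed dispersion of 0.1 and held no library sets, so recovery in these data may differ.

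Il15 had the smallest unadjusted p of the 7 genes in all epithelial cells and in enterocyte-like cells. In all epithelial cells together it stood at 6.98, 10.4 and 8.44 CPM in Sham 1 to 3 and at 17.6 and 15.9 in SBR 1 and 2. Both resection libraries lay above all 3 sham libraries there and in enterocyte-like, immature enterocyte-like and goblet-like cells (1 UMI in goblet-like cells of Sham 1). The same held in the top 4 of the 5 villus bins, but not in cycling-like or Paneth-like cells or the bottom bin. These sums share cells, so they do not repeat each other independently, and the share of all genes with this order was not counted. In stem-like cells both resection libraries also lay higher, but on 0 to 2 Il15 UMIs in each sham library, too few to order the libraries. The log2 fold change was 0.77 ± 0.25 over all epithelial cells (edgeR adjusted p = 1.0) and 0.68 ± 0.38 in enterocyte-like cells (edgeR adjusted p = 0.999), where it ranged from 0.47 without Sham 1 to 1.13 without Sham 2. In immature enterocyte-like cells it was 0.30 ± 0.32 and ran from 0.028 without SBR 2 to 0.52 without SBR 1. Without the clusters that scored alike for both enterocyte classes it was 1.18 in all epithelial, 0.27 in enterocyte-like and 0.73 in immature enterocyte-like cells. Within library sets, themselves seen in these data, the log2 ratio of mean CPM + 1 in enterocyte-like cells was 1.01 (SBR 1 to Sham 1) and 0.51 (SBR 2 to Sham 2 and 3). In the second set Sham 2 (23.8 CPM) stood near SBR 2 (26.0) and Sham 3 lower (12.3). Splits this small carry no test.

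In the top bin, where Il15 had 11, 43 and 52 UMIs in Sham 1 to 3 and 138 and 162 in SBR 1 and 2, the groups differed by 1.25 in mean log2(CPM + 1). An exact two-sided permutation test over libraries gave p = 0.1, the smallest that 3 against 2 libraries allow (0.84 after adjustment over 42 such tests, added after the levels were seen). The make-up of that bin differed too: 99.4% and 99.5% of its cells were enterocyte-like in SBR 1 and 2, against 89.2%, 82.6% and 87.9% in Sham 1 to 3, and the part of this in the Il15 level was not tested. Summed over 9 markers, T cell genes stood at 107, 138 and 52.4 CPM in the top bin of Sham 1 to 3. They stood at 33.9 and 99.3 CPM in SBR 1 and 2, and their part in the Il15 level was not tested. In bulk sums such as these, fewer cells of a type and less RNA per cell cannot be told apart.

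The other 6 genes showed no order by surgery in enterocyte-like cells, where sham and resection values overlapped for each. Their log2 fold changes ran from -0.54 ± 0.43 for Cdh1 to 0.47 ± 0.35 for Btnl2, with edgeR adjusted p = 0.999 for each. In cycling-like cells Btnl2 stood at 3.53, 4.85 and 1.94 CPM in Sham 1 to 3 and at 8.47 and 7.46 in SBR 1 and 2, on 1 to 22 UMIs a library (1.27 ± 0.53, edgeR adjusted p = 1.0). Btnl4 also lay higher in both resection libraries in stem-like, cycling-like and Paneth-like cells, on 0 to 11 UMIs a library, too few to be tested or to order the libraries. Btnl2 also lay higher in both resection libraries in bins 2 and 4 of the villus score and over all epithelial cells, where it stood at 17.9, 19.7 and 12.5 CPM in Sham 1 to 3 and 33.2 and 22.5 in SBR 1 and 2 (0.51 ± 0.32, edgeR adjusted p = 1.0). Enterocyte-like cells made up 54.3%, 27.2% and 37.9% of cells in Sham 1 to 3 and 62.3% and 45.5% in SBR 1 and 2, and the part of this in the sums was not tested. The share of all genes that lay higher in both resection libraries was not counted here either.

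**Figure D4:**
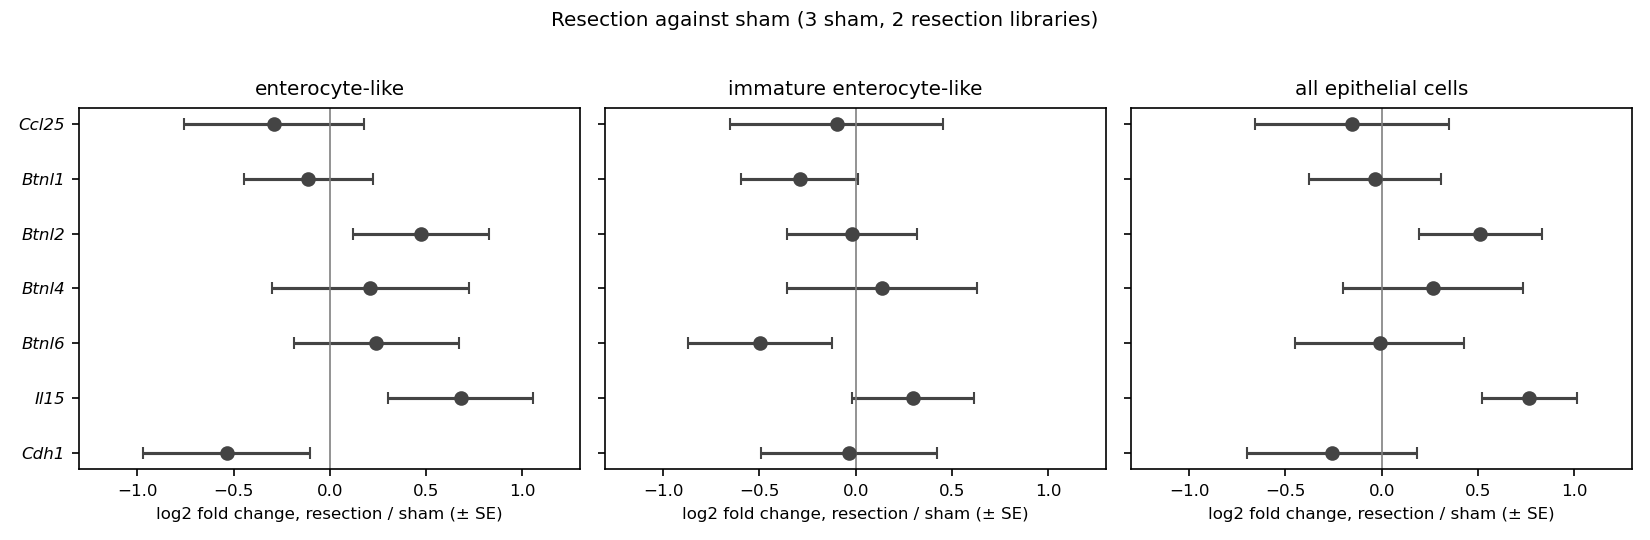
Log2 fold change of resection against sham (± SE, edgeR, 3 sham and 2 resection libraries) for the 7 genes in enterocyte-like cells, immature enterocyte-like cells and all epithelial cells. Il15 is the highest point in enterocyte-like cells (0.68) and in all epithelial cells (0.77), and no gene passed an adjusted p of 0.05.

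The villus gradients did not differ by surgery for any of the 7 genes at the threshold used, where 2.99% of 9650 genes were called, 0.777% with a higher and 2.22% with a lower top-against-bottom log2 fold change after resection. The largest difference among them was that of Il15 (0.66 ± 0.40 higher after resection, edgeR adjusted p = 0.496, from 0.33 without Sham 1 to 1.07 without Sham 3), followed by Ccl25 (-0.34 ± 0.24, edgeR adjusted p = 0.588). These intervals are wide and do not show that the gradients were alike.

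The genes most like each member were ranked by Pearson's r of log2(CPM + 10), centred per library, over 30 sums of library and epithelial class, among 6498 genes. Sums of a class share cells, depth and lineage, so these values describe and carry no test. Ccl25 was nearest to Serpinb1a (0.99), Plac8 (0.99) and Sat1 (0.98), Btnl1 to Sccpdh (0.96), Papss2 (0.95) and Gramd3 (0.95), and Btnl2 to Optn, H2-Q2 and Dpp4 (0.97 each). Il15 was nearest to Mfsd7b (0.94), Pcyt1a (0.94) and Agmo (0.94), and Cdh1 to Lsr, Ndufb7 and Tkt (0.99 each). Among the members the highest value was between Btnl1 and Btnl2 (0.92), and the lowest between Btnl6 and Cdh1 (0.33).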

How the data were processed

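The authors deposited a matrix of unnormalized UMI counts for each library, made with 10x Chromium 3′ v2 chemistry and Cell Ranger per the labels, which give the version with a question mark; the submitters' processing notes name the builds mm10 and GRCm38. Libraries held 11749028 to 41281731 UMIs in all.

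Cells with at least 500 genes and at most 20% mitochondrial UMIs were kept, and the 720 highest doublet scores (scrublet approach, scanpy 1.11.5; 3.80% of cells) removed. Leiden clustering (leidenalg 0.10.2, resolution 1.0, no batch correction) left the 7 genes, the related lists and mitochondrial genes out of the 2000 variable genes. UMIs were summed per library and class and tested with edgeR 4.0.16 (quasi-likelihood, TMM, filterByExpr, two-sided, Benjamini-Hochberg adjustment over all genes tested, threshold 0.05), with the library as a block within libraries and no covariate between surgery groups. Of 56 symbols on several rows, the row with the lowest identifier was used. Cells were thinned to 3000 UMIs for shares of cells with a UMI, leaving out 800 of 8124 enterocyte-like cells, all in Sham 2 and SBR 2.

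The genes, lists, landmark genes and marker genes were chosen with earlier results of these data known. Named list genes were Il15ra, Tnfrsf14, H2-T3, Itgae, Ccr9 and up to 3 called genes per list and direction. Alternatives were DESeq2 1.42.0, other size factors, no filter, a replicate block, library sets as a term, coarser clustering (resolution 0.5), no doublet removal, other villus scores and bins, and each library left out. Library totals without TMM, and leaving out clusters near both enterocyte classes, were added after the data were seen. Scripts were tested on simulated counts. Intervals and limits cover counting error only. T cell-like droplets had been meant as a background for free RNA and were not read as one. Receptor constant genes, Btnl5, Btnl7, H2-T10 and other listed genes outside the gene table were not analysed here. A gene of the regulator list is not reported here.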

Additional observations from a re-analysis of the deposited data

Results flagged for a closer look

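None of the 7 genes, but 4 of 37 tested genes of the related lists, differed in villus gradient between surgery groups in edgeR's test of the difference itself (adjusted p under 0.05), where 2.99% of all genes were called. Ccl20, a chemokine for Ccr6, differed by -2.78 ± 0.49 on the log2 scale (edgeR adjusted p = 0.00202). It went from 7.04 to 69.4 CPM, 7.26 to 18.5 and 276 to 2911 from bottom to top in Sham 1 to 3, and from 8.66 to 1.94 and 45.2 to 68.3 in SBR 1 and 2. Sham 3 stood far above the rest. Il33, an alarm cytokine, differed by -1.60 ± 0.41 (edgeR adjusted p = 0.0347) and was again highest in Sham 3, at 62.9 CPM in the top bin, where the other libraries held 8.35 to 14.2.

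H2-Q1, a nonclassical class I gene, differed by 1.09 ± 0.28 (edgeR adjusted p = 0.036), reaching 67.4, 62.4 and 46.9 CPM at the top in Sham 1 to 3 and 169 and 128 in SBR 1 and 2. Both resection libraries lay above all sham libraries, an order whose share over all genes was not counted. Klrk1, known as NKG2D, a receptor of T cells, differed by -2.38 ± 0.61 (edgeR adjusted p = 0.0338). It went from 9.68 to 10.9 CPM, 7.53 to 1.76 and 6.82 to 9.38 from bottom to top in Sham 1 to 3. In SBR 1 and 2 it went from 16.7 to 2.26 and 9.95 to 1.55, so Sham 2 fell as the resection libraries did. Klrk1 stood at 1.35 to 21.0 CPM in enterocyte-like cells and at 6.70 to 10.7 in T cell-like droplets. Its UMIs were thus not confined to T cell-like droplets, and the cells they came from were not tested.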

How the results depend on the processing

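Over all settings run, no gene of the 7 was called between surgery groups. Members called against enterocyte-like cells moved to 1 without the library block (goblet-like) and to 7 on library totals alone (Paneth-like); all other counts stayed within 1.5 times. Mean shares of enterocyte-like cells with a UMI moved at 2000 UMIs to 73.9% for Ccl25, 5.43% for Btnl1 and 4.39% for Il15, and without thinning to 13.4% for Btnl1, 18.4% for Btnl2, 2.71% for Btnl4, 3.39% for Btnl6 and 10.4% for Il15, as depth sets such shares. The coarser clustering held no stem-like or cycling-like class, so its crypt step and those classes gave no value.

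Of 767 values of single genes under alternatives, 676 kept direction and call, 16 gained a call, 9 lost one and 66 changed sign, the last all among values that were not called; the cause was not tested. Signs of log2 fold changes turned as follows. Library totals alone: immature enterocyte-like surgery Btnl2 0.12; epithelial surgery Btnl1 0.19 and Btnl6 0.22; goblet-like Btnl6 0.077; enterocyte-like against immature Ccl25 -0.21; crypt step Btnl4 -0.19. Without clusters near both classes: immature surgery Btnl2 0.50; epithelial surgery Ccl25 0.18, Btnl1 0.52 and Btnl6 0.37; Paneth-like Cdh1 0.034; crypt step Btnl4 -0.16. Coarser clustering: immature surgery Btnl4 -0.35 and Il15 -0.080; Paneth-like Cdh1 0.046; enterocyte-like against immature Ccl25 -0.025. Doublets kept: enterocyte-like surgery Btnl6 -0.038; immature surgery Btnl4 -0.036; epithelial surgery Btnl6 0.038. No filter: epithelial surgery Btnl6 0.011; villus by surgery Btnl1 -0.0043; goblet-like Cdh1 -0.088. In 3 bins, villus by surgery Btnl1 was -0.0033, and without the library block enterocyte-like against immature Ccl25 was -0.0065. Library set as a term: immature surgery Ccl25 0.20, Btnl2 0.087 and Btnl4 -0.21; epithelial surgery Ccl25 0.060.

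Leaving out 1 library gave these ranges. Enterocyte-like surgery: Ccl25 -0.70 to 0.064, Btnl1 -0.36 to 0.089, Btnl4 -0.35 to 0.79, Btnl6 -0.12 to 0.69. Immature surgery: Ccl25 -0.70 to 0.33, Btnl2 -0.19 to 0.34, Btnl4 -0.61 to 0.70, Cdh1 -0.56 to 0.42. Epithelial surgery: Ccl25 -0.70 to 0.24, Btnl1 -0.31 to 0.15, Btnl4 -0.38 to 0.72, Btnl6 -0.45 to 0.39, Cdh1 -0.64 to 0.18. Villus by surgery: Btnl1 -0.23 to 0.30, Btnl2 -0.085 to 0.27, Btnl4 -0.29 to 0.59. Goblet-like Btnl6 ran from -0.27 to 0.21, enterocyte-like against immature Ccl25 from -0.047 to 0.16, and crypt step Btnl4 from -0.025 to 0.012. With 1 resection library left, it is assumed to vary like the sham libraries.

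The labels do not say that replicate numbers pair the libraries, and 2 pairs are too few to decide it. Across genes, deviations from the group mean in enterocyte-like sums correlated at 0.70 for Sham 1 with SBR 1 and at 0.21 for Sham 2 with SBR 2, and at 0.55 for Sham 3 with SBR 2; with 2 resection libraries, their own deviations mirror each other. With the replicate block no member was called in any class (0), while over all genes 281 were called in all epithelial cells, 108 in immature, 63 in goblet-like, 44 in stem-like, 40 in cycling-like, 24 in Paneth-like and 1 in enterocyte-like cells, against 2 in goblet-like, 2 in Paneth-like and 0 in the other classes without it; Il15 stood at 0.67 over all epithelial cells (edgeR adjusted p = 0.108), and signs turned for Ccl25 in enterocyte-like (0.064), immature (0.21) and all epithelial cells (0.068) and for Btnl4 in immature cells (-0.16).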
